A study of Mus musculus with 18 samples.

Results

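A set of 10 genes that serve astrocytes in the healthy brain was followed in the mouse substantia nigra: Slc1a2, Slc1a3, Glul, Kcnj10, Aqp4, Gja1, Gjb6, Aldh1l1, S100b and Sox9. They are given by name as known astrocyte genes, without a threshold on any value, and all 10 are among the 55270 genes listed in the deposited expression table. The substantia nigra is the midbrain region that holds the dopaminergic neurons controlling movement. Its poly-A RNA was sequenced in 18 libraries, 6 from each of 3 groups of 3-month-old mice. The intact group carries the genotype label WT and no treatment. The AAV-GFP group received an adeno-associated virus (AAV) that expresses green fluorescent protein, and the AAV-SIRT3 group received one that expresses SIRT3, a mitochondrial deacetylase. RNA from both virus groups was taken about a month after the virus. The serotype of the virus, the promoter that drives each gene, the strain and the sex are not given in the sources used here. The labels do not name a mock injection for the intact group, so its comparisons with AAV-SIRT3 hold the virus and the injection as well as SIRT3. AAV-SIRT3 against AAV-GFP is the comparison in which both groups carry a virus.

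Astrocytes take up the glutamate that neurons release, turn it into glutamine, carry away potassium and water, and are joined to each other by gap junctions. The proteins of these tasks are called homeostatic because they keep the fluid around neurons steady. When tissue is injured, astrocytes can switch on another set of genes, called reactive, of which Gfap is the classic marker. S100b and Glul are also made by oligodendrocytes, and Sox9 by ependymal cells, so their values do not belong to astrocytes alone. For the remaining genes, RNA from other cells of the tissue was not separated either. In RNA from whole tissue, a change in the number of astrocytes and a change in RNA per astrocyte cannot be told apart.

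All 10 genes were measured in every library, and the lowest value was 1141 normalised reads for Sox9. A normalised read is a read count divided by the size factor of its library, and the recovered depth was 47182529 to 64728587 reads assigned to genes per library. By mean value, not divided by transcript length, 7 of the 10 lay among the first 523 of the 19443 genes tested. Glul was at place 28 and Slc1a2 at place 30. Defining markers of other cells were present in every group, and 0 markers of the lists for neurons, oligodendrocytes and their precursors, microglia, endothelium, ependyma and choroid plexus were at 0 in all libraries. The summed level of the 8 mature oligodendrocyte markers was 805033 to 991504 normalised reads in intact libraries, 837985 to 962344 in AAV-GFP and 819730 to 947838 in AAV-SIRT3. The sum of the 10 astrocyte genes was 290606 to 311256, 298190 to 334866 and 295346 to 333029 in the same order. The 10 markers listed for thalamic neurons, which may not all be particular to the thalamus, summed to 65322 to 115332 in intact libraries. Their sum was 99924 to 114864 in AAV-GFP and 92894 to 121923 in AAV-SIRT3. Of those 10 thalamic markers, 2 were called higher in AAV-GFP than in intact mice, where 1.84% of all genes tested were called, and 7 in AAV-SIRT3 than in intact mice, where 21.7% were. Each comparison with intact mice thus also holds a difference in these markers, and their part in the results was tested only as the covariate named below.

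Glul was the only one of the 10 genes that passed the test in any comparison, and it rose in AAV-SIRT3 against intact mice. Genes were compared by limma on log2(value + 1), with p-values adjusted by Benjamini-Hochberg over all 19443 genes tested and called below 0.05. In AAV-SIRT3 against intact, 1 of the 10 was called, where 21.7% of all genes tested were called, so 1 of 10 is no more than the background share. In AAV-GFP against intact, 0 of the 10 were called, against a background of 1.84%. In AAV-SIRT3 against AAV-GFP, 0 of the 10 were called, against a background of 0.113%. At an unadjusted p under 0.05 the counts were 3, 2 and 2 of 10 in that order, against 6788, 3707 and 2964 of all genes tested. The median log2 difference of the 10 genes was 0.05, 0.09 and 0.005, beside -0.005, 0.0007 and -0.004 over all genes tested. The first and second of these comparisons share the intact libraries, and AAV-SIRT3 and AAV-GFP libraries each enter a pair of comparisons as well. The groups overlapped for all 10 genes in all 3 comparisons, where 9.33%, 1.86% and 0.751% of all genes tested did not overlap.

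**Figure D1:**
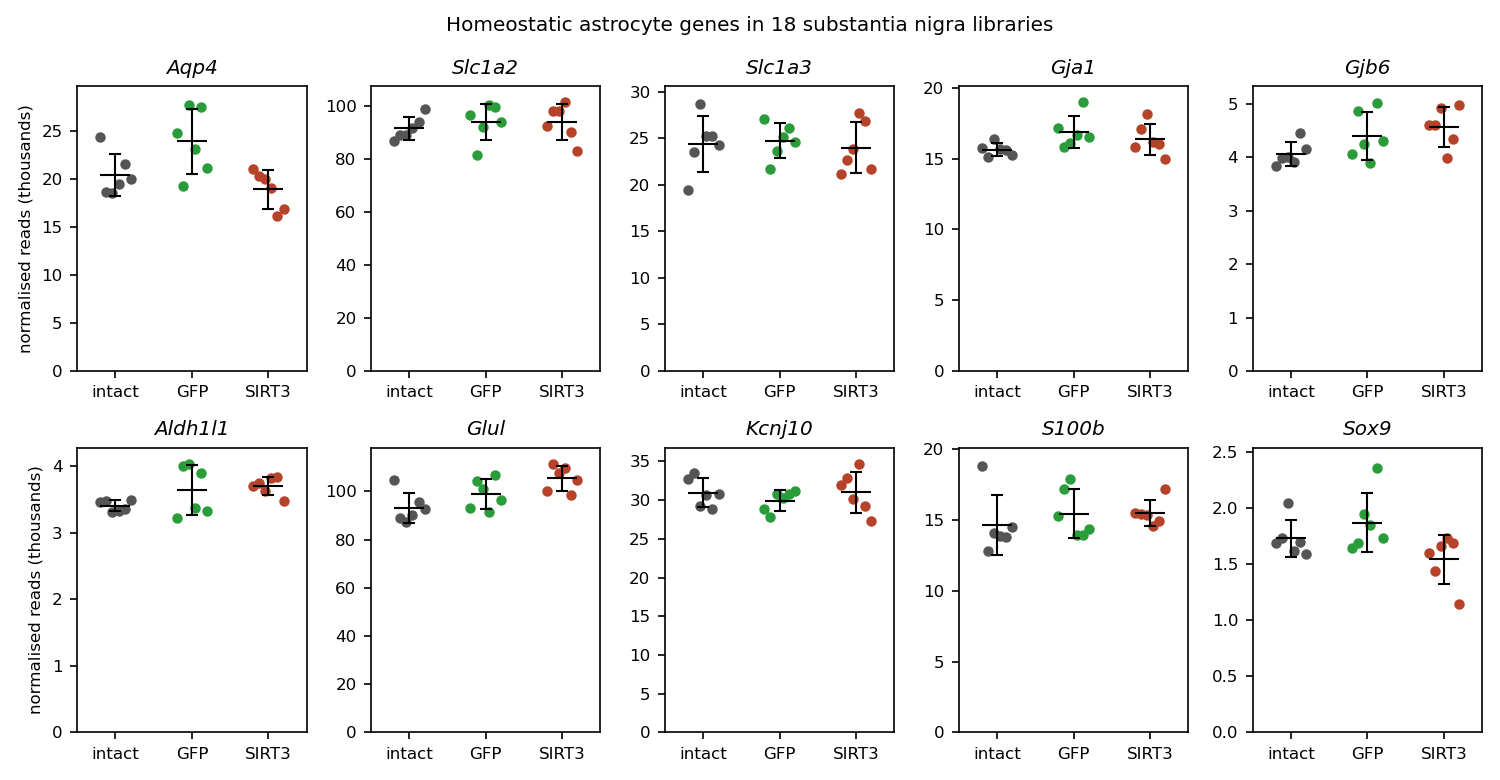
Normalised reads (y axes from 0) of the 10 astrocyte genes in each library of the intact, AAV-GFP and AAV-SIRT3 groups, with dots for libraries and bars for the mean ± SD of 6. The groups overlap in every panel; Glul in AAV-SIRT3 lies above all intact libraries except replicate 1.

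**Figure D2:**
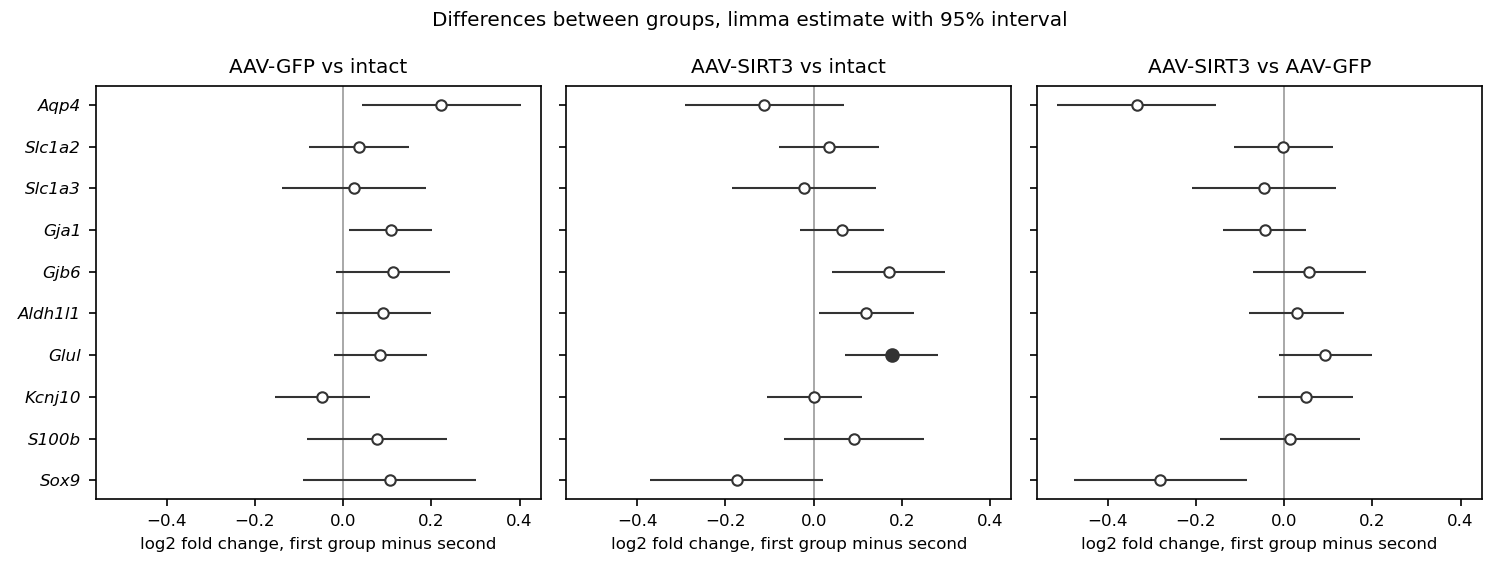
Log2 difference between group means (x axis, limma estimate with its 95% interval) of the 10 genes in the 3 comparisons, with filled points for an adjusted p below 0.05. The filled point is Glul in AAV-SIRT3 against intact, at 0.18.

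Glutamate clearance rests on Slc1a2 and Slc1a3, the transporters GLT-1 and GLAST that take glutamate up, and on Glul, the glutamine synthetase that turns it into glutamine. In GENCODE M21 (GRCm38), Glul lies on chromosome 1 from 153899944 to 153909723 on the + strand, Slc1a2 on chromosome 2 from 102658659 to 102790784 on the + strand, and Slc1a3 on chromosome 15 from 8634124 to 8710764 on the - strand. The stretch before the start of transcription is shown for Glul, the gene that passed the test. It is the 250 bases upstream of the gene start in RefSeq (GRCm38.p6), at chr1:153899679-153899928 on the + strand, and capitals mark a match to ACANNNTGT, the core of a glucocorticoid receptor site.
Glul: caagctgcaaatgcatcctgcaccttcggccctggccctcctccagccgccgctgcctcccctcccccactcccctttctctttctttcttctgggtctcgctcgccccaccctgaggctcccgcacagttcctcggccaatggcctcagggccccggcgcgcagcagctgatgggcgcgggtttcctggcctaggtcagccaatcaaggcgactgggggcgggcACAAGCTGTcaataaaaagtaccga
The match starts 25 bases before the gene start. RefSeq promoters were matched for 8 of the 10 genes. For 6 of them the RefSeq start lay within 100 bases of the GENCODE start, while for Slc1a2 and Aldh1l1 it was an internal start, 47779 and 64366 bases into the GENCODE gene. In these windows of 300 bases, 250 before and 50 after the start, ACANNNTGT was present on either strand in 2 of the 8 (Glul and, at its internal start, Slc1a2) and in 6.85% of 32851 promoters. The SOX cores AACAAT and ACAATG were in 0 of the 8, against 10.7% and 12.6% of all promoters. The nuclear factor I core TTGGCA was in 1 of the 8 (S100b), against 14.1%, and the full nuclear factor I palindrome in 0 of the 8, against 0.0365%. The STAT core TTCCNGGAA was in 0 of the 8, against 1.15%, the heat shock core GAANNTTC in 1 of the 8 (Slc1a3), against 7.86%, and TATAAA in 1 of the 8 (Slc1a3), against 13.6%. These letters describe the windows only, and the motifs were chosen with the values known.

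Glul ranged from 87426 to 104549 normalised reads in intact libraries with a median of 91565, from 91478 to 106926 in AAV-GFP with a median of 98669, and from 98577 to 111379 in AAV-SIRT3 with a median of 106217. The AAV-SIRT3 libraries were all above 5 of the 6 intact ones, and intact replicate 1, at 104549, was the exception. Its mean rose from 93271 ± 6272 in intact to 105396 ± 5238 in AAV-SIRT3 (± SD of 6 libraries), which is a log2 difference of 0.18 with a standard error of 0.0508 (95% interval 0.07 to 0.28, limma adjusted p = 0.0167, higher in 34 of 36 pairs of libraries). Intact replicate 1 was also the highest intact library for S100b, Aqp4 and the oligodendrocyte marker sum, and their part in its Glul value was not tested. The AAV-GFP mean of 98875 ± 6155 lay between the other groups, and it did not differ by the test from intact (0.08, adjusted p = 0.382) or from AAV-SIRT3 (0.09, adjusted p = 0.386). The call thus stands against intact tissue, and the comparison in which both groups carry a virus gave none. With the thalamic marker score as a covariate, the difference was 0.23 (limma adjusted p = 0.0273). It was 0.09 and not called under quantile normalisation (limma adjusted p = 0.125), and the other 30 alternatives kept the call. Of the 8 oligodendrocyte markers, 1 was called higher in AAV-SIRT3 than in intact libraries, where 11.3% of all genes tested were called higher. The median log2 difference of the 8 was 0.07, and the part of oligodendrocytes in the Glul result was not tested. Glul overlaps exons of Teddm2 on the opposite strand, which averaged 40.5 normalised reads, small beside Glul in any library.

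Slc1a2 stayed within a narrow range in all groups. It ranged from 86701 to 98923 normalised reads in intact libraries (median 90371), from 81587 to 100311 in AAV-GFP (median 95298) and from 83119 to 101341 in AAV-SIRT3 (median 95176). Every group held both lower and higher libraries, and AAV-GFP replicate 2 and AAV-SIRT3 replicate 6 were the lowest of theirs. The log2 difference from intact was 0.04 in AAV-GFP (95% interval -0.08 to 0.15, adjusted p = 0.767) and 0.03 in AAV-SIRT3 (-0.08 to 0.15, adjusted p = 0.691). AAV-SIRT3 against AAV-GFP gave -0.002 (-0.11 to 0.11, adjusted p = 0.993).

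Slc1a3 also had group means close to each other and a wider spread between libraries than Slc1a2. Intact libraries held 19420 to 28675 normalised reads (median 24721), AAV-GFP 21693 to 27057 (median 24839) and AAV-SIRT3 21147 to 27739 (median 23258). The intact group spanned the range of both other groups. Log2 differences were 0.02, -0.02 and -0.05 for AAV-GFP against intact, AAV-SIRT3 against intact and AAV-SIRT3 against AAV-GFP, with adjusted p from 0.826 to 0.906. The intervals reached from -0.21 to 0.19 over the 3 comparisons.

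RNA of the uptake gene Slc1a2 was set against RNA of the conversion gene Glul as Slc1a2 minus Glul on the log2 scale. Taken within each library, this difference does not depend on the size factor, and uptake and conversion themselves were not measured. This difference averaged -0.03 ± 0.13 (SD of 6 libraries) in intact mice, -0.07 ± 0.17 after AAV-GFP and -0.17 ± 0.08 after AAV-SIRT3. AAV-SIRT3 was lower than intact by a difference of -0.14 (exact permutation p = 0.0519, adjusted p = 0.208 over 12 tests), which did not pass. It passed with intact replicate 1 left out (-0.19, exact permutation adjusted p = 0.026) and was 0.08 with the length trend described below removed. The other 2 comparisons of this pair had adjusted p of 0.411 and 0.691. Slc1a2 minus Slc1a3 was 1.92 ± 0.18, 1.93 ± 0.05 and 1.97 ± 0.15 in intact, AAV-GFP and AAV-SIRT3 libraries, with adjusted p of 0.691 and 0.933 (exact permutation). Of the 14 other genes of the glutamate and glutamine cycle, 0 were called in AAV-GFP against intact and 0 in AAV-SIRT3 against AAV-GFP. At an unadjusted p under 0.05 by limma were 3 and 1, against 3707 and 2964 of all 19443 genes tested. In AAV-SIRT3 against intact 0 of the 14 rose and 2 fell by limma, which is no more than the 21.7% of all genes called there. The count of the 14 called was 0 to 4 over the alternatives. It was 4 with the length trend described below removed, where 3157 of all genes tested were called beside 4214 without the removal. Slc38a3, the exporter that passes glutamine out of astrocytes, fell by 0.14 on the log2 scale from 4142 to 3748 normalised reads (adjusted p = 0.035). Grm5, a metabotropic glutamate receptor, fell by 0.23 from 6749 to 5781 (adjusted p = 0.0328). Leaving out any 1 of 8 libraries ended the Slc38a3 call (adjusted p 0.0515 to 0.0893) and any 1 of 7 the Grm5 call (0.0509 to 0.0858), and with the length trend described below removed Grm5 was at -0.09. With the thalamic marker score as a covariate Slc38a3 was at -0.22 (limma adjusted p = 0.0177). Its call was lost with all genes above 0 (adjusted p = 0.0677) and in the fit of the 2 groups compared (0.0571). The replicate block (0.0585) and leaving out the 3 libraries of the steepest length trend (0.0594) ended it too. Slc38a3 differed by -0.16 in AAV-SIRT3 against AAV-GFP (adjusted p = 0.133) and was called there only with AAV-GFP replicate 2 left out (adjusted p = 0.0407).

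Potassium and water leave the astrocyte at its endfeet, the processes that wrap blood vessels. Kcnj10 encodes the potassium channel Kir4.1 and Aqp4 the water channel aquaporin-4. Kcnj10 lies on chromosome 1 from 172341210 to 172374085 on the + strand, and Aqp4 on chromosome 18 from 15389496 to 15410982 on the - strand. Kcnj10 ranged from 28814 to 33555 normalised reads in intact libraries (median 30710), from 27843 to 31122 in AAV-GFP (median 30519) and from 27324 to 34669 in AAV-SIRT3 (median 31074). The AAV-GFP libraries sat inside the AAV-SIRT3 range. Its log2 differences were -0.05 (AAV-GFP against intact), 0.002 (AAV-SIRT3 against intact) and 0.05 (AAV-SIRT3 against AAV-GFP), with adjusted p from 0.668 to 0.987.

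Aqp4 had the largest difference between 2 group means of the 10 genes, on the log2 scale. Intact libraries ranged from 18479 to 24323 normalised reads (median 19759), AAV-GFP from 19287 to 27663 (median 23920) and AAV-SIRT3 from 16083 to 21034 (median 19528). In AAV-GFP, 5 of 6 libraries lay above every AAV-SIRT3 library, and replicate 2, the lowest, lay within the AAV-SIRT3 range. The mean was 23901 ± 3390 (SD of 6 libraries) after AAV-GFP and 18883 ± 2002 after AAV-SIRT3, a log2 difference of -0.33 with a 95% interval of -0.51 to -0.15. With the limma adjusted p at 0.108 it did not pass over all genes, and AAV-SIRT3 was the higher one in 3 of 36 pairs. With AAV-GFP replicate 2 left out it was -0.39 and passed (adjusted p = 0.0166), and DESeq2 on the recovered reads also called it (-0.34, adjusted p = 0.0174). Against intact, the difference was 0.22 in AAV-GFP (0.04 to 0.40, adjusted p = 0.166) and -0.11 in AAV-SIRT3 (-0.29 to 0.07, adjusted p = 0.379).

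Aqp4 and Kcnj10 did not keep the same ratio in the virus groups. The log2 value of Aqp4 minus that of Kcnj10 ranged from -0.85 to -0.42 in intact libraries (median -0.64), from -0.56 to -0.15 in AAV-GFP (median -0.31) and from -0.86 to -0.59 in AAV-SIRT3 (median -0.70). All 6 AAV-SIRT3 libraries lay below all 6 AAV-GFP libraries, while intact libraries overlapped both. The means were -0.72 ± 0.12 in AAV-SIRT3 and -0.34 ± 0.18 in AAV-GFP, a difference of -0.38 with a standard error of 0.0892 (exact permutation p = 0.00216, the smallest that 6 against 6 can give, adjusted p = 0.0259 over 4 pairs of genes in 3 comparisons). That adjustment covers the 4 pairs tested and not the other pairs that the 10 genes could form. Aqp4 was also the gene of the 10 with the largest difference in this comparison. AAV-GFP against intact gave 0.27 (exact permutation p = 0.0325, adjusted p = 0.195) and AAV-SIRT3 against intact -0.11 (adjusted p = 0.411), and neither passed. The difference of -0.38 was -0.39 after a trend with transcript length was removed, with the same adjusted p of 0.0259. Leaving out a library in turn gave -0.43 to -0.35, all with an adjusted p of 0.052, where having fewer libraries also raises the smallest p the test can give. It shows unequal change of 2 genes within a library and not which of them moved.

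**Figure D3:**
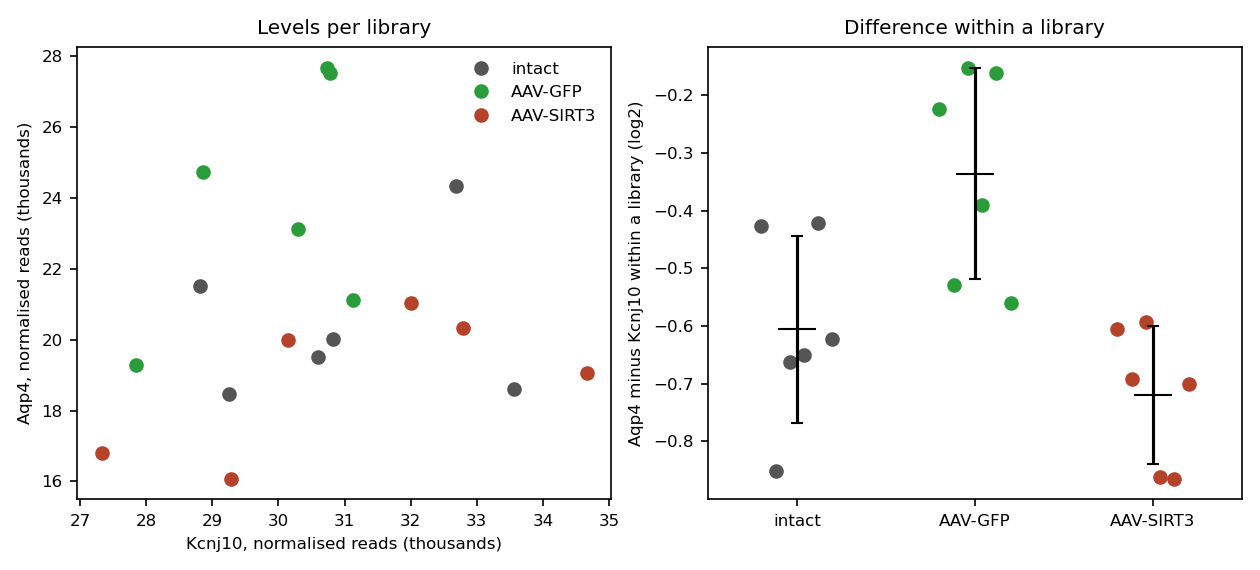
Left, normalised reads of Aqp4 against those of Kcnj10 in each library. Right, the log2 value of Aqp4 minus Kcnj10 in each library, with the mean ± SD of 6 per group: AAV-SIRT3 libraries lie at -0.86 to -0.59 and AAV-GFP libraries at -0.56 to -0.15.

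The endfoot anchors of both channels were followed with 11 genes, the dystrophin complex and its neighbours. In AAV-SIRT3 against intact, 1 of the 11 rose and 4 fell, where 21.7% of all genes were called, with a median log2 difference of -0.12 beside -0.005 over all genes. Endothelial markers, which lie in the same vessels, had a median of -0.25 there, with 1 of 6 called higher and 2 lower. In AAV-SIRT3 against AAV-GFP their median was -0.35, with 0 of 6 called. By limma, 4 of the 6 had an unadjusted p under 0.05, against 2964 of all 19443 genes tested. Their summed level was 7645 to 9847 normalised reads in intact, 8426 to 10719 in AAV-GFP and 6962 to 10181 in AAV-SIRT3 libraries, and their part in the endfoot counts was not tested. Lama2, a laminin chain of the vessel basement membrane, fell from 1309 ± 153 to 988 ± 69 normalised reads (-0.40, limma adjusted p = 0.00108). Dmd, dystrophin, fell by 0.28 on the log2 scale (adjusted p = 0.00699) and Dag1, dystroglycan, fell by 0.16 (adjusted p = 0.0142). With the length trend described below removed, Lama2 was at -0.23 (adjusted p = 0.0306), Dmd at -0.02 (adjusted p = 0.737) and Dag1 at -0.08 (adjusted p = 0.0936), and Dmd and Dag1 lost their calls in no other of the 31 alternatives. By limma, none of the 11 was called in AAV-GFP against intact or in AAV-SIRT3 against AAV-GFP. At an unadjusted p under 0.05 were 1 and 5, against 3707 and 2964 of all 19443 genes tested. Kcnj16, which joins Kcnj10 in channels, was at 3086, 2926 and 2972 normalised reads in intact, AAV-GFP and AAV-SIRT3 mice and was not called (adjusted p of at least 0.629).

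Gap junctions between astrocytes are built of connexin 43 and connexin 30, encoded by Gja1 (chromosome 10, 56377330 to 56402513, + strand) and Gjb6 (chromosome 14, 57123303 to 57133611, - strand). Gja1 had the smallest spread within groups of the 10 genes, with a standard deviation of 0.08 on the log2 scale. Its values were 15118 to 16399 in intact libraries (median 15645), 15846 to 18970 in AAV-GFP (median 16592) and 14981 to 18128 in AAV-SIRT3 (median 16107). In AAV-GFP, 34 of 36 pairs were higher than intact, with a log2 difference of 0.11 (95% interval 0.01 to 0.20) that did not pass (adjusted p = 0.195). AAV-SIRT3 differed from intact by 0.06 and from AAV-GFP by -0.04, with adjusted p of 0.33 and 0.685.

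Gjb6 came nearest to passing after Glul. Its values were 3840 to 4457 in intact libraries (median 3987), 3898 to 5021 in AAV-GFP (median 4272) and 3977 to 4978 in AAV-SIRT3 (median 4607). The AAV-SIRT3 libraries were mostly high, and replicate 4 was the lowest of them. AAV-SIRT3 against intact gave a log2 difference of 0.17 (95% interval 0.04 to 0.30, adjusted p = 0.0529, 31 of 36 pairs higher). It was called in 9 of 31 alternatives, 5 of them with 1 library left out (intact replicate 5, AAV-GFP replicates 2, 4 and 5, and AAV-SIRT3 replicate 4, adjusted p 0.0165 to 0.0452), and had an adjusted p of 0.17 with the length trend removed. AAV-GFP against intact gave 0.11 (adjusted p = 0.329) and AAV-SIRT3 against AAV-GFP 0.06 (adjusted p = 0.702). Within libraries, Gja1 minus Gjb6 was 1.95 ± 0.09, 1.94 ± 0.14 and 1.84 ± 0.15 on the log2 scale in intact, AAV-GFP and AAV-SIRT3, with exact permutation p adjusted over 12 tests from 0.411 to 0.933.

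Of 11 other connexins and partners, 1 rose and 1 fell in AAV-SIRT3 against intact, no more than the 21.7% of all genes called there. In AAV-GFP against intact and AAV-SIRT3 against AAV-GFP, 0 were called. By limma, 1 and 1 had an unadjusted p under 0.05, against 3707 and 2964 of all 19443 genes tested. Gjc1, connexin 45, rose from 481 ± 160 to 650 ± 103 normalised reads (0.49, adjusted p = 0.0319), and lost its call with any 1 of 7 libraries left out (adjusted p 0.0528 to 0.0814). With the thalamic marker score as a covariate its difference was -0.03. Tjp1, the junction scaffold ZO-1, fell by 0.24 on the log2 scale (adjusted p = 0.00823) and was at -0.12 with the length trend described below removed (adjusted p = 0.0446). It is also a junction gene of endothelium, whose markers had the lower median given above. Gjb2, connexin 26, was at 898, 881 and 783 normalised reads in intact, AAV-GFP and AAV-SIRT3 mice and was not called (adjusted p of at least 0.317).

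Aldh1l1, S100b and Sox9 stand for astrocyte identity. Aldh1l1, a folate enzyme (chromosome 6, 90486427 to 90600203, + strand), was the tightest gene in intact mice, at 3314 to 3488 normalised reads (median 3412). It ranged from 3219 to 4033 in AAV-GFP (median 3633) and from 3476 to 3832 in AAV-SIRT3 (median 3722). AAV-SIRT3 was higher than intact in 35 of 36 pairs, and the log2 difference of 0.12 did not pass (95% interval 0.01 to 0.23, adjusted p = 0.104). It was 0.15 and called with the length trend removed (adjusted p = 0.048) and called in the fit of the 2 groups compared (adjusted p = 0.0212). The other 2 comparisons gave 0.09 and 0.03 (adjusted p = 0.352 and 0.839).

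S100b, a calcium-binding protein gene (chromosome 10, 76253853 to 76261159, + strand), was 12813 to 18842 in intact libraries (median 13972), 13923 to 17896 in AAV-GFP (median 14803) and 14592 to 17207 in AAV-SIRT3 (median 15393). Single libraries stood above the rest in intact (replicate 1) and in AAV-SIRT3 (replicate 6). The log2 differences were 0.08, 0.09 and 0.01 for AAV-GFP against intact, AAV-SIRT3 against intact and AAV-SIRT3 against AAV-GFP, with adjusted p of 0.622, 0.425 and 0.954. Its gene overlaps that of Dip2a on the opposite strand, with no exon in common, and Dip2a averaged 8624 normalised reads.

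Sox9, the transcription factor that sets and keeps astrocyte fate (chromosome 11, 112782224 to 112787760, + strand), was the lowest and the most scattered of the 10. It was 1590 to 2046 in intact libraries (median 1692), 1639 to 2355 in AAV-GFP (median 1789) and 1141 to 1726 in AAV-SIRT3 (median 1626). The AAV-SIRT3 libraries were mostly low and replicate 6 the lowest of all 18. AAV-SIRT3 against AAV-GFP gave a log2 difference of -0.28 (95% interval -0.48 to -0.08, adjusted p = 0.187), with AAV-SIRT3 higher in 4 of 36 pairs. Against intact the differences were 0.11 in AAV-GFP (adjusted p = 0.58) and -0.17 in AAV-SIRT3 (adjusted p = 0.195). None of the 3 passed. With a library left out, AAV-SIRT3 against AAV-GFP was -0.32 to -0.20. AAV-GFP replicate 5, the highest library for Sox9, had a mean of 7291 normalised reads over 6 choroid plexus markers. The highest such mean in AAV-SIRT3 was 384. Intact replicate 2 had a mean of 8244 and a Sox9 value of 1735. The part of choroid plexus or ependymal tissue in the Sox9 values was not tested.

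Of 13 other transcription factors of astrocytes, 3 rose and 2 fell in AAV-SIRT3 against intact, where 21.7% of all genes were called. Zbtb20 fell from 7363 ± 467 to 4836 ± 591 normalised reads (-0.61, limma adjusted p = 0.00105). Every AAV-SIRT3 library lay below every intact one for Zbtb20, in a comparison where 9.33% of all genes tested did not overlap. Zbtb20 was at -0.25 with the length trend described below removed (adjusted p = 0.00505). Hes5 and Hes1, targets of Notch, rose by 0.43 and 0.27 on the log2 scale (adjusted p = 0.0446 and 0.0313), and Id4 by 0.27 (adjusted p = 0.0268). Leaving out 1 library ended the call of Hes5 for 10 of the libraries, of Hes1 for 5 and of Id4 for 5, with adjusted p up to 0.108, and the count of 5 was 2 without AAV-SIRT3 replicate 3 and 3 without intact replicate 1 or AAV-SIRT3 replicates 2 or 4. With the thalamic marker score as a covariate Id4 was at 0.14 (adjusted p = 0.385), and with the length trend removed Hes1 was at 0.18 (adjusted p = 0.193). In AAV-GFP against intact and AAV-SIRT3 against AAV-GFP, 0 of the 13 were called by limma. At an unadjusted p under 0.05 were 2 and 5, against 3707 and 2964 of all 19443 genes tested.

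Another 30 genes of resting astrocytes were counted as a wider frame. In AAV-GFP against intact 3 rose and 0 fell, where 1.84% of all genes were called, with a median log2 difference of 0.06 beside 0.0007 over all genes. These were Apoe, the main lipid carrier of the brain (0.34, limma adjusted p = 0.00436), Clu, clusterin (0.22, adjusted p = 0.0101, and 0.0854 with the thalamic score as a covariate), and Cldn10 (0.17, adjusted p = 0.0462), whose call was lost with any 1 of 12 libraries left out (adjusted p up to 0.102) and which was at 0.09 with that covariate (adjusted p = 0.429). In AAV-SIRT3 against intact 10 rose and 0 fell, where 11.3% of all genes rose, with a median of 0.08. The count was 5 without AAV-SIRT3 replicate 2 and 4 with the thalamic score as a covariate. The largest were Mt3, a metal-binding protein (0.34, adjusted p = 0.00456), Dio2, which makes active thyroid hormone (0.33, adjusted p = 0.0328), Apoe (0.22, adjusted p = 0.00919) and Agt, angiotensinogen (0.19, adjusted p = 0.0189). Dio2 lost its call with any 1 of 6 libraries left out (adjusted p 0.0583 to 0.0864), and with the length trend described below removed Apoe was at 0.12 (adjusted p = 0.0774) and Agt at 0.13 (adjusted p = 0.097). In AAV-SIRT3 against AAV-GFP, 0 of the 30 were called by limma. An unadjusted p under 0.05 was found for 4, against 2964 of all 19443 genes tested.

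The reactive genes were counted in the same way. Of 23 reactive astrocyte genes, 4 rose and 0 fell in AAV-GFP against intact, where 1.84% of all genes were called, with a median log2 difference of 0.32. These were C3, the central complement protein (1.31, limma adjusted p = 0.0034), Serpina3n, a protease inhibitor (0.89, adjusted p = 0.00297), C4b, another complement gene (0.88, adjusted p = 0.00713), and Gfap, which rose from 17682 ± 2680 to 25350 ± 5934 normalised reads (0.50, adjusted p = 0.0388) and lost its call with any 1 of 8 libraries left out (adjusted p up to 0.0944). In AAV-SIRT3 against AAV-GFP, where 0.113% of all genes were called, C3 and Serpina3n fell by 1.32 and 0.88 on the log2 scale (adjusted p = 0.00991 each), and Gfap differed by -0.55 with no call (adjusted p = 0.0758). The count there was 10 with DESeq2, which called 308 of all genes tested. The limma count was 6 without AAV-GFP replicate 2 and 4 with AAV-GFP replicate 6 left out. By limma, 15 of the 23 were at an unadjusted p under 0.05 there, against 2964 of all 19443 genes tested. Their median log2 difference was -0.39, and 5 of the 23 were above 0. In AAV-SIRT3 against intact the counts were 3 higher and 1 lower, no more than the 21.7% of all genes called there: Lcn2 (2.89, adjusted p = 0.0474), Cxcl10 (1.75, adjusted p = 0.0184), Psmb8 (0.65, adjusted p = 0.0109) and S1pr3 (-0.26, adjusted p = 0.0418), and leaving out 1 library ended the call of Lcn2 for 11 libraries, of S1pr3 for 7 and of Cxcl10 for 2 (adjusted p up to 0.111). Whether a reactive gene's change differed from that of the homeostatic genes was not tested. Microglia make some of these genes too, and the summed level of 8 microglial markers was 18475 to 20724 normalised reads in intact, 20326 to 25563 in AAV-GFP and 20594 to 24058 in AAV-SIRT3 libraries. Their part in the reactive counts was not tested.

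A trend with transcript length ran through the libraries, and the longest of the 10 genes followed it. In each library, the deviation of every gene from its mean over libraries was correlated with the length of its longest transcript, over 18824 genes. That Spearman correlation was 0.08 to 0.19 in intact libraries, -0.33 to 0.12 in AAV-GFP and -0.32 to -0.01 in AAV-SIRT3, so long transcripts had relatively lower values in many virus libraries. AAV-GFP replicate 2 and AAV-SIRT3 replicates 6 and 5 had the steepest trends. Slc1a2, whose longest transcript of 11595 bases exceeds those of the other 9 genes, followed the trend within groups over 18 libraries, with Pearson's r of 0.86 (permutation p = 0.00018, adjusted p = 0.0018 over 10 genes) and Spearman's rho of 0.80 (adjusted p = 0.0042). Without the 2 libraries farthest from the median, AAV-GFP replicate 2 and AAV-SIRT3 replicate 6, r was 0.67. For Kcnj10, r was 0.62 (permutation adjusted p = 0.0151) and rho 0.59 (adjusted p = 0.085), and for Aqp4 0.61 (adjusted p = 0.044) and 0.38 (adjusted p = 0.28). Without those 2 libraries r was 0.44 for Kcnj10 and 0.37 for Aqp4, so both rest in part on them. The other 7 genes had an adjusted p of at least 0.124 for r.

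**Figure D4:**
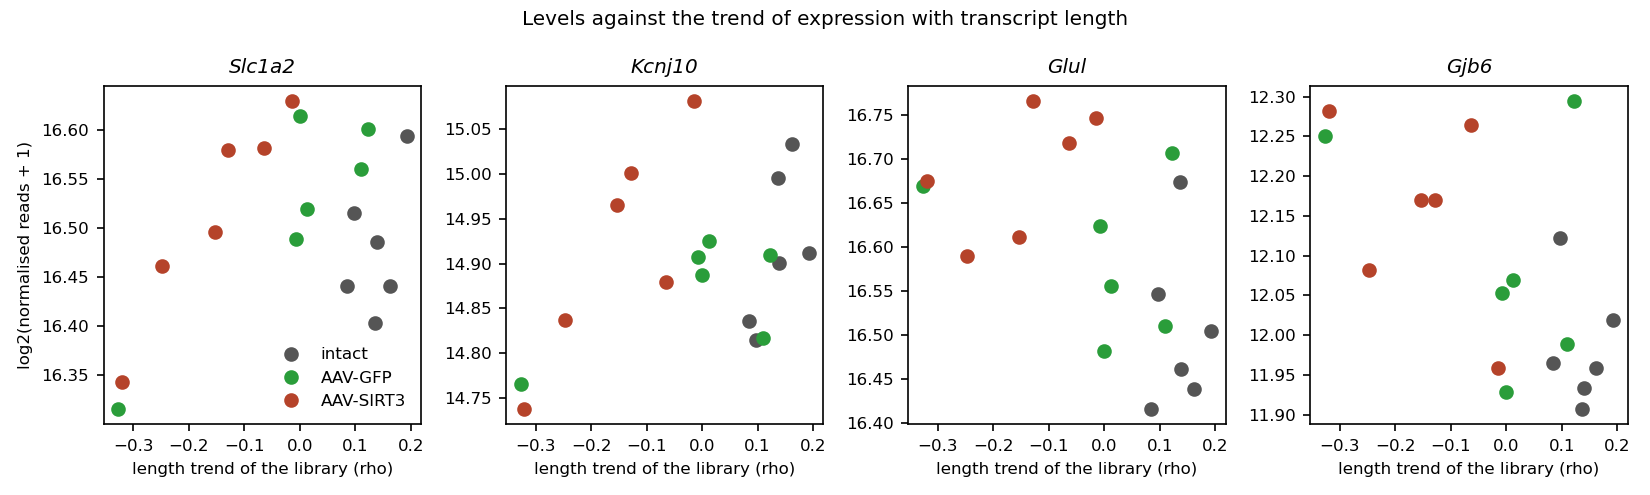
Log2 level of Slc1a2, Kcnj10, Glul and Gjb6 in each library (y axis, log2 of normalised reads) against the library's Spearman correlation of gene deviation with transcript length (x axis), coloured by group. Intact libraries lie to the right at 0.08 to 0.19, and Slc1a2 is lower in libraries to the left.

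With that trend removed, Slc1a2 moved from uncalled to called in both comparisons with intact. Its log2 difference was then 0.17 in AAV-GFP (limma adjusted p = 0.03) and 0.24 in AAV-SIRT3 (adjusted p = 0.000571), beside 0.04 and 0.03 without the removal. Slc1a2 minus Glul then turned to 0.08 in AAV-SIRT3 against intact. Glul was 0.16 (adjusted p = 0.0237) with the removal and 0.20 (adjusted p = 0.0181) without the 3 libraries of the steepest trend. The removal assumes that no real change follows transcript length, which was not tested.

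Levels were set against each other only per kilobase of the longest transcript. In intact mice, Glul led with 33406 ± 2247 normalised reads per kilobase (SD, n = 6), followed by S100b at 9876 ± 1432, Slc1a2 at 7892 ± 377, Kcnj10 at 5725 ± 345 and Slc1a3 at 5500 ± 678. Aqp4 had 4038 ± 438, Gja1 4020 ± 116, Gjb6 1927 ± 106, Aldh1l1 815 ± 18.7 and Sox9 418 ± 39.8. Among neighbours in this order, the ranges of Kcnj10 and Slc1a3, of Slc1a3 and Aqp4, and of Aqp4 and Gja1 overlapped, and the other neighbours did not. Kcnj10 and Slc1a3 changed places in AAV-GFP, and Aqp4 and Gja1 in AAV-SIRT3. With the union of all exons as length, Slc1a3 and Aqp4 changed places. Oligodendrocytes also make S100b and Glul, and their share of these levels was not separated.

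The 10 genes did not vary as one block. Over the 18 libraries, the correlation of a gene's log2 level with the mean of the other 9 ran from 0.68 for Gja1 to -0.10 for S100b, with Glul at 0.48, Aldh1l1 at 0.46 and Slc1a3 at -0.07. The strongest pair was Aldh1l1 and Glul (0.66, and 0.53 within groups), and Slc1a3 and S100b ran opposite (-0.65, and -0.67 within groups). These are descriptions over libraries that share their size factors. The spread within groups had a median of 0.107 on the log2 scale over the 10 genes, beside 0.146 over all genes tested. It was widest for Sox9 (0.186) and Aqp4 (0.174). By likeness to the mean profile of the 10 genes over the 18 libraries, the nearest of 15235 genes were St13 (Pearson's r of 0.89), Chordc1 and Selenop (0.85 each), Caap1, Spred1 and Paqr8 (0.84 each) and Snap29 and Dnajb4 (0.83 each), given as a description.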

How the data were processed

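RNA of 18 libraries of the substantia nigra was compared (3 groups of 6, from the sample titles). Each deposited value is a signal for 1 gene: the authors' HTSeq counts normalised by DESeq2, per the name of the deposited table. Per the submitters' processing notes, HISAT2 2.1.0, DESeq2 1.34.0 and build mm10 were used. The annotation and the strand setting of the counting are not given in the sources used here, so reads of antisense partners could not be told apart. Per the labels' protocols, libraries were stranded poly-A libraries, read in pairs of 100 bp.

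Multiplying each column by 1 size factor gave whole reads for 100% of the values within 1e-06 reads. In intact and AAV-SIRT3 replicate 4 the size factor was close to 1, which is weaker proof. Depth was 47182529 to 64728587 reads, and counting error is small beside the spread of libraries. Replicates differed by more than sampling noise (chi-square per degree of freedom 7.75 to 33.5 over 45 pairs). The design text says 6 mice per group, and p-values measure the spread between these libraries. 0 columns of per-sample values lacked a sample.

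Values were tested as log2(value + 1) with limma 3.58.1 in R 4.3.3 (variance trend, 3 groups in 1 fit, 15 residual degrees of freedom), over genes with at least 10 in at least 6 libraries, with Benjamini-Hochberg adjustment per comparison. All 10 genes passed this filter. Fold changes on this scale understate the change of low genes. Differences of 2 genes within a library were tested by exact two-sided permutation. Correlations with the length trend were tested by 100000 two-sided permutations within groups (scipy 1.17.1). Recovered reads were tested with edgeR 4.0.16, which called 352, 4155 and 25 genes in AAV-GFP against intact, AAV-SIRT3 against intact and AAV-SIRT3 against AAV-GFP, and with DESeq2 1.42.0. The procedure was tested on simulated data, with changes planted in AAV-SIRT3 against AAV-GFP in genes drawn from all 19443 tested. It called 22% of the genes planted at a log2 change of 0.25, 72% at 0.5, 80% at 1 and 98% at 2. A small difference without a call is thus not shown to be absent. Also tried were quantile normalisation, TMM factors, a pseudocount of 0.5 or 10, no filter but a value above 0, a mean of at least 50, fits of 2 groups, a replicate block, a length trend removed, a thalamic score as a covariate and each library left out. Leaving out the 3 libraries with the steepest length trend was chosen after seeing the data.

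The genes and lists were chosen with earlier results of these data known. All 10 genes are named in each comparison. Of each list, at most the 4 largest changes among called genes are named, Gfap, Slc38a3, Kcnj16 and Gjb2 are given in any case, and the 8 most like genes are named. Some genes that this rule would name are not reported here, though they are counted in their lists. Positions and lengths come from GENCODE M21 (GRCm38), and sequences from RefSeq (GRCm38.p6).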

Additional observations from a re-analysis of the deposited data

Results flagged for a closer look

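Among 30 sets of 6 libraries (10 genes in 3 groups), 3 held a library far from the others, where chance gives about 1.5. S100b in intact replicate 1 was 18842 normalised reads, and the next highest intact library had 14509, a gap of 0.719 of the group's range. S100b in AAV-SIRT3 replicate 6 was 17207, with the next library at 15504 (0.651 of the range). Sox9 in intact replicate 3 was 2046, with the next library at 1735 (0.683 of the range).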

How the results depend on the processing

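Of 31 alternatives per comparison, the count of the 10 genes called in AAV-SIRT3 against intact (1) became 0 under quantile normalisation, 2 with a mean of at least 50, with DESeq2 and with the replicate block, 3 in the fit of 2 groups and with the length trend removed, and 1 to 2 with a library left out (2 without intact replicate 5, AAV-GFP replicates 2, 4 or 5, or AAV-SIRT3 replicate 4). In AAV-SIRT3 against AAV-GFP it was 1 with DESeq2 and 0 to 1 with a library left out (1 without AAV-GFP replicate 2), and in AAV-GFP against intact 1 with the length trend removed and 0 with each library left out. Over all genes, AAV-GFP against intact gave 358 calls, and 164 with all genes above 0, 979 with DESeq2, 199 in the fit of 2 groups, 225 with the length trend removed (143 higher and 82 lower, beside 160 and 198), 37 with the thalamic score (34 higher and 3 lower), 214 without the 3 libraries of the steepest length trend, and 129 to 686 with a library left out (lowest without intact replicate 3, highest without AAV-GFP replicate 1). The 4214 calls of AAV-SIRT3 against intact became 1944 with the thalamic score, 3157 with the length trend removed (1991 higher and 1166 lower, beside 2206 and 2008), and 3279 to 4633 with a library left out. The 22 of AAV-SIRT3 against AAV-GFP became 308 with DESeq2 (152 higher and 156 lower, beside 7 and 15), 8 in the fit of 2 groups, 13 with the replicate block, and 5 to 861 with a library left out (lowest without AAV-SIRT3 replicate 5, highest without AAV-GFP replicate 2). Pair differences reversed with the length trend removed for Gja1 minus Gjb6 (0.033) and Slc1a2 minus Glul (0.093) in AAV-GFP against intact and for Slc1a2 minus Glul (0.080) in AAV-SIRT3 against intact. With a library left out, Slc1a2 minus Slc1a3 was -0.044 to 0.061, Gja1 minus Gjb6 -0.036 to 0.043 and Slc1a2 minus Glul -0.097 to 0.0077 in AAV-GFP against intact, Slc1a2 minus Glul -0.19 to -0.11 in AAV-SIRT3 against intact (adjusted exact permutation p of 0.026 without intact replicate 1), and Aqp4 minus Kcnj10 -0.43 to -0.35 in AAV-SIRT3 against AAV-GFP. Log2 differences that turned sign were not called with either sign, Gjc1 excepted. In AAV-GFP against intact, Slc1a2 was -0.016 under quantile normalisation and -0.018 with the thalamic score, and Slc38a3 -0.055, Kcnj16 0.040 and Gjb2 0.17 with the thalamic score. With a library left out, Slc1a3 was -0.040 to 0.072, Slc38a3 -0.014 to 0.048 and Gjb2 -0.11 to 0.035 there. In AAV-SIRT3 against intact, Slc1a2 was -0.019 under quantile normalisation and -0.022 with the thalamic score, Kcnj10 -0.0060 with TMM and -0.050 with the thalamic score, Slc1a3 0.020 with the length trend removed, Gjc1 -0.026, Gfap 0.18 and Kcnj16 0.064 with the thalamic score, and Kcnj16 0.017 without the 3 libraries. With a library left out, Slc1a3 was -0.086 to 0.027, Kcnj10 -0.031 to 0.037, Gfap -0.11 to 0.016 and Kcnj16 -0.086 to 0.0056 there. In AAV-SIRT3 against AAV-GFP, S100b was -0.0056 under quantile normalisation and -0.030 with the length trend removed, and Slc1a2 0.077 with the length trend removed and 0.014 without the 3 libraries. With a library left out, Slc1a2 was -0.042 to 0.033, Aldh1l1 -0.0060 to 0.059, S100b -0.018 to 0.057 and Kcnj16 -0.011 to 0.046 there. Of 2107 log2 differences of named genes under alternatives, 1896 kept direction and side, 144 lost the call, 20 gained it and 47 turned sign. Replicate numbers did not pair the libraries (correlation of same-numbered libraries -0.0953 to 0.175). Without AAV-GFP replicate 2, AAV-SIRT3 against AAV-GFP gave 2 calls each among the other astrocyte genes, the endfoot genes and the transcription factors and 1 each among the glutamate cycle genes and the connexins. The cause of each change was not tested, except that fewer libraries or genes were used where some were left out. Depth does not limit the 10 genes, which had at least 1141 normalised reads in every library.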
